A study of Mus musculus with 23 samples.

Results

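The miR-29 family of the mouse is encoded by 4 hairpins, and the retinal count matrix holds 1 mature row for each of them: mir-29a, mir-29b-1, mir-29b-2 and mir-29c. These rows were taken by name, 4 of the 903 mature rows, and all of them passed the minimum of 10 reads in at least 3 mice. Retinas were collected at postnatal day 90 and their small RNA was sequenced, 1 retina per library in 23 libraries, which were read as 15 mice. Heterozygous P23H knock-in mice carry a rhodopsin mutation that causes retinitis pigmentosa in people, a loss of rod photoreceptors. They were treated with DNA nanoparticles holding the human rhodopsin gene in genomic form (human gRHO, 3 libraries from 2 mice) or the mouse gene in that form (mouse gRho, 11 libraries from 7 mice). Other P23H mice received saline (2 libraries from 1 mouse) or stayed uninjected (5 libraries from 3 mice). Untreated wild-type C57B retinas (WT, 2 libraries counted as 2 mice) carry no knock-in allele, whereas all 4 P23H groups share it, so every difference from WT in a treated group holds the mutation and the treatment together.

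A microRNA guides a silencing complex to messenger RNAs that pair with its seed, the stretch of bases 2 to 8 from its 5′ end, and lowers their output. The miR-29 family is best known for holding down extracellular matrix genes, among them collagens, elastin and fibrillin, and for targeting the de novo DNA methyltransferases. In mouse neurons miR-29 rises during maturation and restrains pro-apoptotic BH3-only genes. The hairpins are made from 2 transcripts, each giving a b copy together with either miR-29a or miR-29c.

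The mature 3p sequences are shown because they set what these rows can and cannot tell apart. They are from RefSeq (GRCm38.p6), 5′ to 3′, with the seed in capitals.
miR-29a-3p: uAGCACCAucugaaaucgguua
miR-29b-3p: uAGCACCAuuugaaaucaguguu
miR-29c-3p: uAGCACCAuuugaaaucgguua
The seed AGCACCA was shared by 3 of 1679 mature mouse names in RefSeq, and those 3 are the members above. Counted from 1 at the 5′ end, the sequence of miR-29c-3p differs from that of miR-29a-3p by U10C, 1 of 22 bases. The sequence of miR-29b-3p differs from that of miR-29c-3p by A18G, G21U and U22A over the same 22 bases and is 1 base longer. That 3′ end of miR-29b has been described in human cells as an element that directs it to the nucleus. The b copies make the same 3p sequence from different loci, so a 3p read cannot be given to mir-29b-1 or mir-29b-2 by its letters.

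The b hairpins differ outside the shared arm, and they are shown with both mature arms in capitals.
mir-29b-1: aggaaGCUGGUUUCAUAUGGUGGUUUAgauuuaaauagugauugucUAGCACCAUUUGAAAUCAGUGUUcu
mir-29b-2: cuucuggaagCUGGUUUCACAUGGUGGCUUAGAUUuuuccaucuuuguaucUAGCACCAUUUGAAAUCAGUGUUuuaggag
The 5p arms differ at 2 of 21 aligned positions once the first base of the mir-29b-1 arm is left out, and the loops between the arms hold 19 bases in mir-29b-1 and 16 in mir-29b-2. Mature rows carry no arm, so it is not known how many of their reads are 5p or 3p, and the separate b rows are uncertain as measurements of separate loci.

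On GRCm38, mir-29b-2 lies at chr1:195037040-195037120 and mir-29c at chr1:195037547-195037634, both on the plus strand with 426 bases between them. Both hairpins sit within an exon of the noncoding transcript A330023F24Rik, and on the other strand an exon of Cd46, a complement regulator, covers them. The hairpin of mir-29a lies at chr6:31062660-31062747 and that of mir-29b-1 at chr6:31063023-31063093, both on the minus strand with 275 bases between them. The start of the mir-29b-1 hairpin, read along its own strand, touches an exon of the lincRNA Gm27019.

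Libraries held 5968388 to 16048954 mature miRNA reads (median 9939390), and the 903 mature rows summed to 10.4% to 19.5% of those reads. The photoreceptor rows (3 of 3) and neuron rows (6 of 6) fixed as retinal markers had reads in every library. Their sums were lowest in 1 library of mouse gRho mouse 1 (its right eye), at 52.9 and 2612 counts per 1000000 mature miRNA reads (CPM). The share of miRNA reads set apart in the alignment table as cross-mapped was lowest in the WT mice, 10.1% and 5.52%, against 10.6% to 15.2% in the 13 P23H mice. Levels below are CPM per mouse, with the eyes of a mouse summed. Fold changes are from edgeR with TMM factors, which rescale each mouse to a common level over all rows. The factor of WT mouse 2 was 0.734 and those of the other mice were 0.897 to 1.26.

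All 4 rows were detected in each of the 23 libraries at moderate depth. mir-29c was the highest, with 297 to 794 reads per library and a median of 49.5 CPM, which placed it 73rd of 903 mature rows. mir-29b-2 followed at a median of 36.3 CPM (195 to 586 reads, rank 83), then mir-29b-1 at 31.0 CPM (128 to 491 reads, rank 90) and mir-29a at 14.6 CPM (87 to 270 reads, rank 129). The mature products differ by at most 3 bases in length, so these levels were set side by side without a length correction. By mouse, mir-29c made up 32.9% to 50.1% of the family sum and mir-29a 8.79% to 17.0%. The order c over b-2 over b-1 over a thus held for the medians, while the b rows changed places in 3 mice and mir-29a exceeded mir-29b-2 in WT mouse 2.

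Summed over the 4 rows, the family averaged 142.6 ± 1.9 CPM in human gRHO mice (SD, n = 2) and 129.6 ± 9.6 CPM in mouse gRho mice (SD, n = 7). The saline mouse had 124.4 CPM. Uninjected P23H mice averaged 141.8 ± 17.8 CPM (SD, n = 3), and WT mice averaged 110.1 ± 16.1 CPM (SD, n = 2). Group ranges of the sum overlapped except where human gRHO (141.3 and 144.0 CPM) lay above saline and WT and where saline (124.4 CPM) and uninjected mice (124.2 CPM and more) lay above WT (98.7 and 121.5 CPM). Among single rows, 37.2% did not overlap between human gRHO and WT and 26.2% between uninjected P23H and WT. That share was not computed for the saline mouse against human gRHO or WT, so those separations stand without a background. On TMM-scaled CPM the sums of the WT mice, 126.0 and 134.5, lay inside the range of all P23H mice, 104.9 to 142.9. Human gRHO, at 141.3 and 142.1, still lay above WT on that scale, where the share of rows that did not overlap was not computed. In a bulk retina, fewer cells of a type and less RNA per cell cannot be told apart, so a level is that of the whole tissue.

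**Figure D1:**
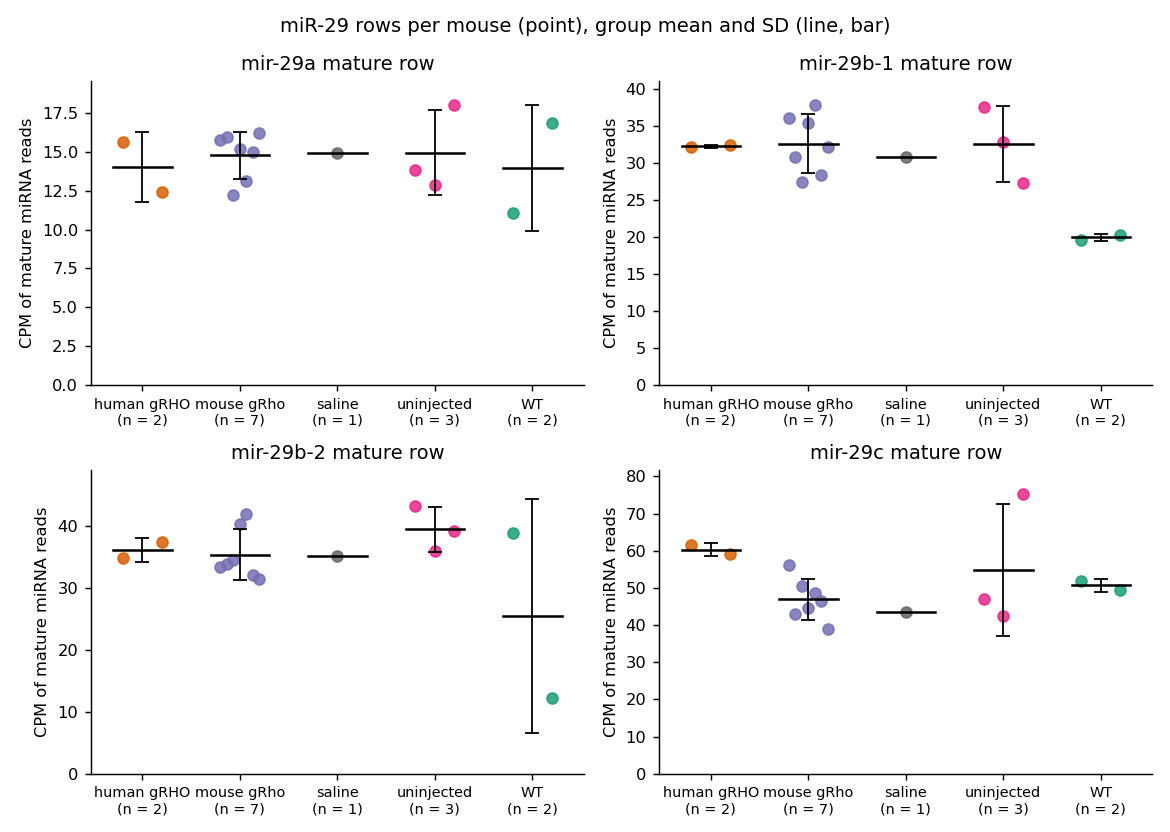
CPM of the 4 mature miR-29 rows (y axis, counts per 1000000 mature miRNA reads) by group, with 1 point per mouse, a line at the group mean and a bar of 1 SD where a group has at least 2 mice. mir-29b-1 stands lower in both WT mice (19.6 and 20.3 CPM) than in every P23H mouse, while 1 WT mouse alone is low for mir-29b-2 (12.2 CPM).

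mir-29b-1, which shares a transcript with mir-29a, was the row whose plain CPM set the P23H mice apart from WT. Human gRHO mice had 32.1 and 32.4 CPM. Mouse gRho mice had 27.4, 28.4, 30.8, 32.1, 35.4, 36.0 and 37.8 CPM. The saline mouse had 30.7 CPM, uninjected mice had 37.5, 32.8 and 27.2 CPM, and WT mice had 19.6 and 20.3 CPM. Every P23H mouse lay above both WT mice, and so did all 21 P23H libraries taken singly (21.4 to 44.0 CPM). Counted by mouse, the same held for 22 of 382 tested rows, 5.76%, mir-29b-1 included. The share of rows that separate by library was not computed. Taken pair by pair, groups did not overlap in 37.2% of rows between human gRHO and WT, 13.1% between mouse gRho and WT and 26.2% between uninjected P23H and WT.

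The same comparison on TMM-scaled CPM did overlap. mir-29b-1 then ran from 21.6 to 38.2 in the P23H mice, against 20.3 and 27.6 in the WT mice, and 3.93% of rows, mir-29b-1 not among them, had every P23H mouse above WT. In the fit, mir-29b-1 differed by 0.42 on the log2 scale (SE 0.29, adjusted p = 0.638, edgeR) in human gRHO against WT. The difference was 0.44 (SE 0.24, 95% interval −0.06 to 0.94, adjusted p = 0.330, edgeR) in mouse gRho against WT and 0.27 (SE 0.26, adjusted p = 0.612, edgeR) in uninjected P23H against WT. None passed the threshold of 0.05. With no scaling factors the differences were 0.69, 0.71 and 0.71 in the same order (adjusted p = 0.454, 0.104 and 0.126, edgeR). Without WT mouse 1 they were 0.25, 0.30 and 0.17, and without WT mouse 2 they were 0.63, 0.73 and 0.58. Over all settings tried, uninjected P23H against WT ran from 0.17 to 0.71, without a call.

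Other quantities were set beside mir-29b-1, and a correlation was computed for the cross-mapped share only. Across the 15 mice the CPM of mir-29b-1 followed the cross-mapped share with Pearson r = 0.72 (permutation p = 0.00247, adjusted over 4 rows 0.00988) and Spearman rho = 0.64 (permutation p = 0.0116, adjusted 0.0464). Without the 2 mice farthest from the median share, r was 0.66, with WT mouse 1 still included. Both WT mice had the lowest shares and the lowest mir-29b-1. The permutations mixed WT and P23H mice, so these values also hold the difference between WT and P23H. Among the 13 P23H mice alone r was 0.40 (permutation p = 0.175) and rho 0.46 (permutation p = 0.120). Among the 7 mouse gRho mice r was 0.78 (exact permutation p = 0.0423, adjusted 0.0996) and rho 0.75 (exact permutation p = 0.0663), and the other groups are too small for a value of their own. Without the 2 of these mice farthest from their median share, r was 0.60. In the same 7 mice mir-29c had r = 0.75 (exact permutation p = 0.0498, adjusted 0.0996), and 0.24 without those 2. With the cross-mapped share as a covariate, chosen after the data were seen, mir-29b-1 stood at 0.56 in human gRHO against WT, 0.60 in mouse gRho against WT and 0.44 in uninjected P23H against WT, with adjusted p of 0.811, 0.736 and 0.941 (edgeR). The summed rows of mir-204 and mir-211 (2 of 2 markers of pigment epithelium and Müller glia, neither at 0 in any library) were 97.5 to 298.4 CPM in P23H libraries and 99.6 and 53.7 CPM in WT libraries. The summed rows of mir-184, mir-205, mir-203 and mir-31 (4 of 4 markers of surface epithelium, lens and cornea, none at 0 in any library) were 18.9 to 112.7 CPM in P23H libraries and 17.3 and 19.4 CPM in WT libraries. Both marker sums overlapped between P23H and WT libraries, and other marker lists were summed that are not given here. The part of these quantities in the mir-29b-1 levels was not tested beyond the covariate fit.

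**Figure D2:**
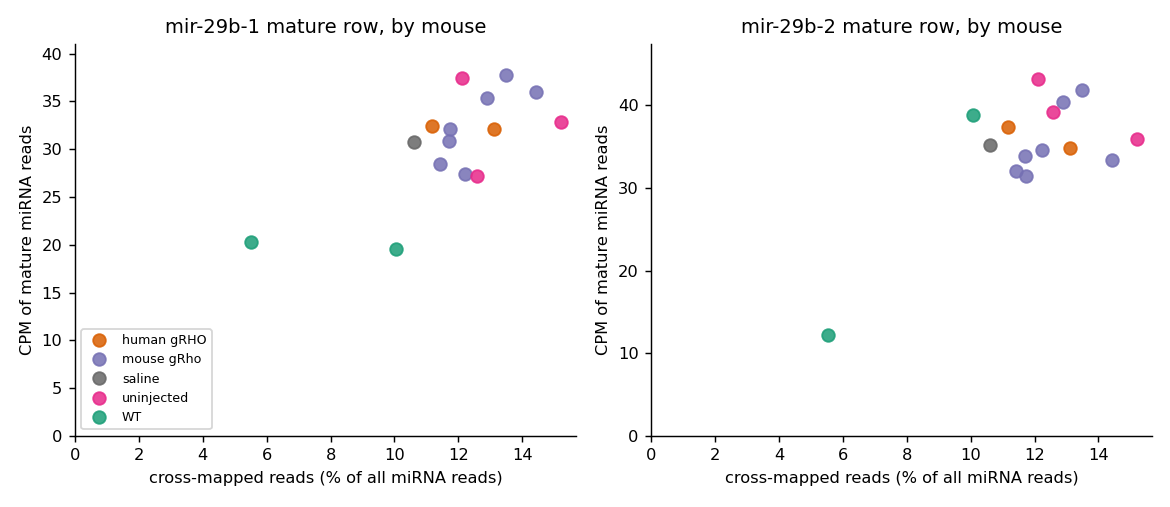
CPM of mir-29b-1 (left) and mir-29b-2 (right) against the percentage of miRNA reads recorded as cross-mapped, with 1 point per mouse, coloured by group. WT mouse 2, at a share of 5.52%, is the point farthest to the left in both panels and the lowest for mir-29b-2.

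mir-29b-2, the copy that shares a transcript with mir-29c, set WT mouse 2 apart from all the others. Human gRHO mice had 34.8 and 37.4 CPM, and mouse gRho mice had 31.4 to 41.9 CPM (median 33.9). The saline mouse had 35.2 CPM and uninjected mice had 43.2, 36.0 and 39.2 CPM. The saline mouse thus lay under all 3 uninjected mice, as 52.9% of rows did not overlap in that comparison. WT mice had 38.9 and 12.2 CPM. The WT mice thus stood 1 inside the P23H range and 1 far under it. Across the 15 mice the correlation of mir-29b-2 with the cross-mapped share, r = 0.70 (permutation p = 0.0292, adjusted 0.0583), fell to 0.09 without the 2 mice farthest from the median share, so it rested on those mice (rho = 0.29, permutation p = 0.304). Among the 13 P23H mice r was 0.15 (permutation p = 0.633), and 0.49 without the 2 farthest from their median share. Among the 7 mouse gRho mice r was 0.47 (exact permutation p = 0.285), and 0.94 without the 2 farthest of that group. WT mouse 2 held 195 reads of this row in the deepest library, and it stayed the lowest of all 15 mice on the TMM scale, at 16.6 against 30.3 or more elsewhere.

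The fitted differences of mir-29b-2 from WT were 0.34 (SE 0.34, adjusted p = 0.703, edgeR) in human gRHO, 0.32 (SE 0.28, adjusted p = 0.508, edgeR) in mouse gRho and 0.29 (SE 0.31, adjusted p = 0.642, edgeR) in uninjected P23H mice. They turned on which WT mouse was present. Without WT mouse 1 the values were 1.15, 1.16 and 1.18 in the same order and passed the threshold (adjusted p = 0.010, 0.003 and 0.006, edgeR). Calls were common in that setting, with 46, 64 and 60 of all 382 rows past the threshold (12.0%, 16.8% and 15.7%), against 0, 12 and 6 with all mice present. Without WT mouse 2 they were −0.20, −0.14 and −0.14. With 1 WT mouse left, that mouse is assumed to vary like those of the other groups.

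The balance between the b rows showed the same split. mir-29b-1 held 41.0% to 51.9% of the reads of both b rows in the 13 P23H mice. In WT mouse 1 it held 33.5% (95% exact interval 29.6% to 37.6%), and in WT mouse 2 it held 62.5% (58.2% to 66.7%). The WT mice lay on opposite sides of all P23H mice, by more than counting error, which is all that these intervals cover. Summing the b rows removes the question of which copy a shared read belongs to. The summed row gave 0.34 (SE 0.27, adjusted p = 0.669, edgeR) in human gRHO against WT, 0.34 (SE 0.22, adjusted p = 0.398, edgeR) in mouse gRho against WT and 0.28 (SE 0.24, adjusted p = 0.565, edgeR) in uninjected P23H against WT.

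mir-29c, the most abundant member, had the largest fitted difference of the 4 rows between the rhodopsin treatments. Human gRHO mice had 61.5 and 59.0 CPM. Mouse gRho mice had 39.1, 43.1, 44.7, 46.4, 48.5, 50.5 and 56.3 CPM. Both human gRHO mice lay above all 7 mouse gRho mice, which also held on the TMM scale (59.1 and 60.7 against 42.1 to 51.0). By library the groups overlapped, at 56.7 to 66.3 CPM in human gRHO and 39.1 to 58.8 CPM in mouse gRho. The log2 fold change was 0.36 (SE 0.21, 95% interval −0.08 to 0.79), with an unadjusted p of 0.105 and an adjusted p of 0.997 (edgeR). Of all tested rows, 6.81% did not overlap between these groups, so such a separation was not rare.

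In the other comparisons mir-29c did not pass the threshold either. The saline mouse had 43.5 CPM, uninjected mice had 47.0, 42.5 and 75.3 CPM, and WT mice had 51.9 and 49.5 CPM. Uninjected mouse 3 was the highest of the study, with 95.3 CPM in its right eye and 55.9 CPM in its left. In human gRHO against uninjected the log2 fold change was 0.33 (SE 0.24, adjusted p = 0.930, edgeR), and in mouse gRho against uninjected it was −0.02 (SE 0.18, adjusted p = 0.982, edgeR). Without uninjected mouse 3 these were 0.53 and 0.19, so for mouse gRho the sign turned. The fitted differences of mir-29c from WT were −0.02 (SE 0.26) in human gRHO, −0.37 (SE 0.21) in mouse gRho and −0.35 (SE 0.24) in uninjected P23H mice. Their adjusted p were 0.982, 0.345 and 0.475 in the same order (edgeR). Both human gRHO mice lay above both WT mice in plain CPM, where 37.2% of rows did not overlap. On the TMM scale these groups overlapped, with WT at 53.9 and 67.4.

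mir-29a, the least abundant member and the cluster partner of mir-29b-1, had overlapping groups throughout. Human gRHO mice had 15.6 and 12.4 CPM, mouse gRho mice had 12.2 to 16.2 CPM (median 15.2) and the saline mouse had 14.95 CPM. Uninjected mice had 13.9, 12.9 and 18.0 CPM, and WT mice had 11.1 and 16.8 CPM. Its fitted difference from WT was −0.31 (SE 0.32) in human gRHO, −0.22 (SE 0.25) in mouse gRho and −0.41 (SE 0.29) in uninjected P23H mice, with adjusted p of 0.703, 0.634 and 0.491 (edgeR). The plain CPM means ran the other way, with 14.0, 14.8 and 14.9 CPM in these groups and 14.0 CPM in WT, and the fit without scaling factors gave 0.0056, 0.079 and 0.096. Its direction against WT therefore hung on the scaling.

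No miR-29 row passed an adjusted p of 0.05 in any of the 7 comparisons (edgeR, 0 of 4 each), and none had an unadjusted p under 0.05. DESeq2 also called 0 of the 4, and of all 382 rows it called 1.31% in human gRHO, 4.71% in mouse gRho and 2.88% in uninjected P23H against WT. The shares of all rows called by edgeR were 0% in human gRHO against WT, 3.14% in mouse gRho against WT and 1.57% in uninjected P23H against WT, and 0% in the 4 comparisons within P23H. An unadjusted p under 0.05 was found in 9.95%, 18.1% and 16.5% of rows in the 3 comparisons with WT and in 2.62%, 4.71%, 3.4% and 2.88% within P23H (human gRHO, mouse gRho and saline against uninjected, then human gRHO against mouse gRho).

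Of the comparisons within P23H, that of mouse gRho with uninjected mice has the most mice. Treated and uninjected mice differ by the injection as well as by the nanoparticles, and these cannot be told apart here. The 4 differences were 0.18 (SE 0.22) for mir-29a, 0.18 (SE 0.20) for mir-29b-1, 0.03 (SE 0.23) for mir-29b-2 and −0.02 (SE 0.18) for mir-29c, with adjusted p of 0.982 each (edgeR). Their 95% intervals ran between −0.46 and 0.65, so a rise of more than 1.57-fold lay outside all of them. The median over the members was 0.10, against 0.08 over all rows. In human gRHO against uninjected the members lay between 0.04 and 0.33 (adjusted p 0.930 to 0.999, edgeR), with a median of 0.12 against 0.01 over all rows. In saline against uninjected they lay between −0.03 and 0.30 (adjusted p 0.910 to 0.996, edgeR), where the 1 saline mouse is assumed to vary like the others. These 3 comparisons share the uninjected mice.

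**Figure D3:**
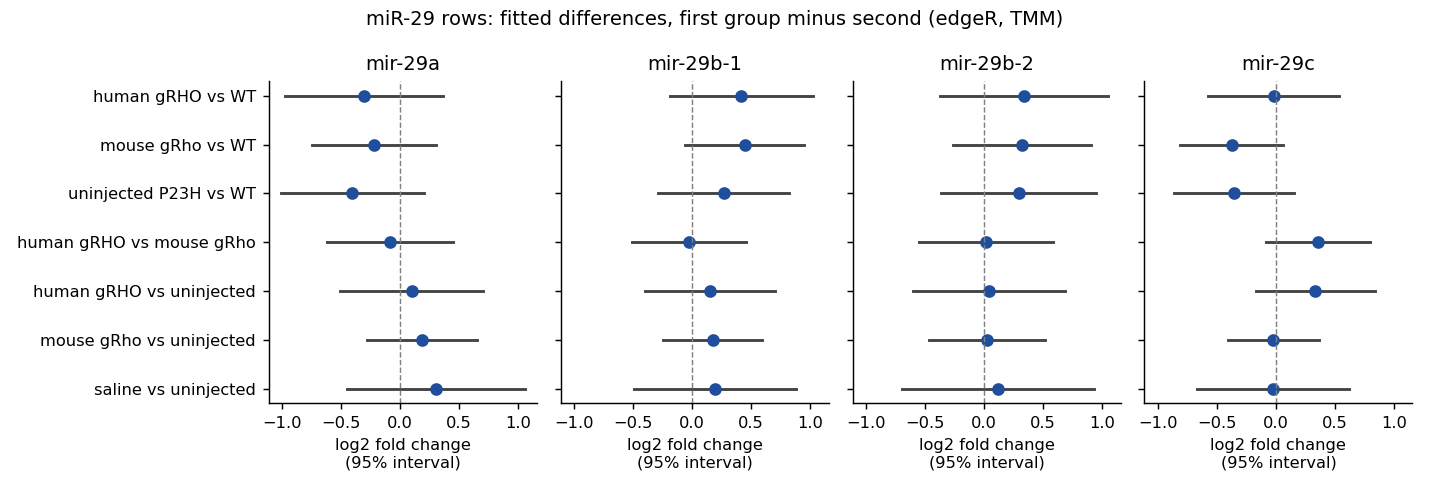
Fitted log2 fold changes (x axis, first group minus second) of each miR-29 row in 7 comparisons, with 95% intervals from edgeR on 15 mice. Every interval crosses 0, and the values run from −0.41 (mir-29a, uninjected P23H against WT) to 0.44 (mir-29b-1, mouse gRho against WT).

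Within the mouse gRho group the observed spread of each member was larger than read counting alone gives, least clearly for mir-29a. The excess was not tested. The coefficient of variation between the 7 mice was 10.3% for mir-29a, 12.2% for mir-29b-1, 11.6% for mir-29b-2 and 11.8% for mir-29c, where read counting alone gives 7.3%, 4.9%, 4.8% and 4.1%. In the 8 mice with both eyes sequenced, the eyes were compared in plain CPM. Right eyes exceeded left eyes in 7 of 8 mice for mir-29a and mir-29b-1, in 5 of 8 for mir-29b-2 and in 3 of 8 for mir-29c. The share of all rows with such counts was not computed. With TMM factors and a term for the mouse, the differences were 0.07 (SE 0.12), 0.16 (SE 0.12), −0.11 (SE 0.15) and −0.08 (SE 0.14) in that order, with adjusted p of 0.952 each (edgeR, 0% of 330 rows called and 2.73% at an unadjusted p under 0.05). For mir-29b-2 the fitted sign was opposite to the count in plain CPM.

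No relation between members made from the same transcript passed a test across mice. Over the 15 mice mir-29a and mir-29b-1 had r = 0.00 (permutation p = 0.991) and rho = −0.11 (permutation p = 0.694), and mir-29b-2 and mir-29c had r = 0.13 (permutation p = 0.608) and rho = 0.19 (permutation p = 0.499). Without the 2 mice farthest from the median of the first row, r was −0.31 and 0.31. The b rows had the highest r of the 6 pairs, 0.56 (permutation p = 0.0356, adjusted 0.214), with rho = 0.40 (permutation p = 0.141, adjusted 0.423). Within the 13 P23H mice that r was 0.54, and it fell to 0.11 without the 2 mice farthest from the median, so the relation rested on those mice.

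The rows most like each member were found by Spearman rho of CPM over the 23 libraries, among 126 rows averaging 10 CPM or more. All rows of a library share its depth and read total, so these values describe likeness only. mir-29b-1 was nearest to let-7c-2 (0.76), mir-199a-2 (0.76), mir-199a-1 (0.75), mir-676 (0.70) and mir-200b (0.68). mir-29c was nearest to mir-700 (0.71), mir-154 (0.67), mir-129-2 (0.66), mir-30c-2 (0.63) and mir-501 (0.61). mir-29b-2 was nearest to mir-181a-1 (0.67), mir-674 (0.63), mir-770 (0.60), mir-342 (0.58) and mir-484 (0.55). mir-29a had no close neighbour, mir-200a being the nearest at 0.42, before mir-214, let-7i, mir-204 and mir-369 (0.38 to 0.36). No member was among the nearest 5 rows of another, with ranks of 41 to 117.

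The loop rows, counted apart from the mature rows, gave a separate reading of the b hairpins, since their loops differ in sequence. mir-29b-1 had 170 loop reads in 21 of 23 libraries, which placed it 8th of 143 loop rows, and mir-29b-2 had 10 in 5 libraries. Precursor rows held 11 reads for mir-29b-2 and 1 for mir-29a.

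The mir-29b-1 loop row was nearly empty in the human gRHO mice. They had 2 and 1 reads, 0.0896 and 0.101 CPM. Mouse gRho mice had 5 to 23 reads, 0.571 to 1.24 CPM, with a mean of 0.94 ± 0.30 CPM (SD, n = 7). The saline mouse had 25 reads (1.16 CPM) and uninjected mice had 15, 3 and 13 reads, 0.62 ± 0.21 CPM (SD, n = 3). WT mice had 11 reads (1.14 CPM) and 0 reads. By mouse, human gRHO lay below every other P23H mouse, and among the WT mice 1 was above it and 1 below. By library human gRHO and mouse gRho overlapped. The left eye of mouse gRho mouse 2 had 1 read (0.168 CPM), and that of human gRHO mouse 1 had 2 reads (0.180 CPM).

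Pooled over mice, the ratio of human gRHO to mouse gRho was 0.102 (95% interval 0.0207 to 0.308) and that of human gRHO to uninjected was 0.143 (95% interval 0.0279 to 0.457), intervals that cover counting error only. Fitted with the other 17 loop rows that passed the filter, the difference was −3.21 (SE 1.06, unadjusted p = 0.00368, adjusted p = 0.0662, edgeR) between human gRHO and mouse gRho. It was −2.48 (SE 1.11, unadjusted p = 0.0299, adjusted p = 0.135, edgeR) between human gRHO and uninjected P23H. Of the 18 loop rows 0% were called in either comparison, and 27.8% and 33.3% did not overlap between the groups. Neither difference passed the threshold with all mice present. The adjusted p of the first fell to 0.000999 without WT mouse 1, 0.00263 without WT mouse 2, 0.0392 without uninjected mouse 1 and 0.0397 without mouse gRho mouse 7. It was 0.390 without human gRHO mouse 2 and was 0.587 with no filter on low counts. The second fell to 0.0268 without WT mouse 1. Mature mir-29b-1, by contrast, differed by −0.03 (SE 0.23, 95% interval −0.51 to 0.46, adjusted p = 0.997, edgeR) between human gRHO and mouse gRho.

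**Figure D4:**
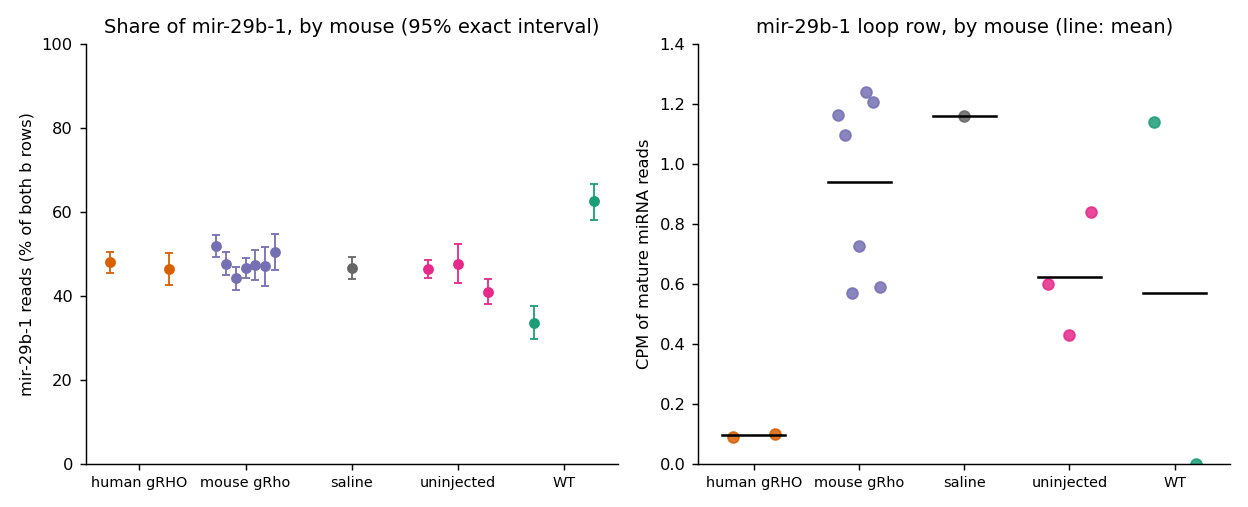
Left, share of mir-29b-1 in the reads of both b rows by mouse, in percent with 95% exact intervals. Right, CPM of the mir-29b-1 loop row by mouse, with a line at the group mean. The WT mice lie on opposite sides of all P23H mice on the left (33.5% and 62.5%), and the human gRHO mice lie at 0.0896 and 0.101 CPM on the right.

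A list of 37 other loci linked to fibrosis and extracellular matrix, the process miR-29 is best known for opposing, had 29 rows tested. Another 7 of the 37 were set aside because they jumped between distinct levels. The list includes the mir-200, mir-30, mir-199 and mir-26 families and mir-21a. None of the tested rows passed the threshold in any comparison (edgeR). Against WT, 14 lay higher and 15 lower in human gRHO (median −0.04), 16 lay higher and 13 lower in mouse gRho (median 0.27), and the same 16 and 13 counts were found in uninjected P23H (median 0.09). The medians over all rows were 0.02, −0.01 and −0.09. An unadjusted p under 0.05 was reached by 2, 8 and 6 of the 29. The nearest to a call was mir-30b, of a family that restrains epithelial-to-mesenchymal change, at −1.03 (SE 0.28, adjusted p = 0.0521, edgeR) in mouse gRho against WT. DESeq2 gave it −0.99 (SE 0.31, adjusted p = 0.0315) and it was then the 1 list member called, where DESeq2 called 18 of all 382 rows (4.71%). mir-30b also passed when uninjected mouse 2 or mouse gRho mouse 1, 3, 4, 5 or 6 was left out. Its adjusted p was then 0.0339 to 0.0480 (edgeR), where 3.2% to 3.95% of all rows were called. Without WT mouse 1, 3 of the 29 were called in human gRHO, 7 in mouse gRho and 6 in uninjected P23H against WT, where 12.0%, 16.8% and 15.7% of all rows were called.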

How the data were processed

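Small RNA libraries were made from flash-frozen retinas with Trizol extraction and the NEXTflex small RNA v3 kit, per the labels' protocols. The authors deposited a matrix of read counts for each miRNA locus and class of sequence, with a second table that counts reads by kind of alignment. DESeq2 is the 1 tool listed in the submitters' processing notes. For the aligner, the counter and the build, the answer is not given in the sources used here. Whether 5p and 3p reads were counted together is not stated.

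Titles were read as cage, ear mark and eye, which is an inference. Eyes of 1 mouse were summed, so p-values rest on the spread between mice as read from titles, which may be technical in part. The first number of the title is the same in all uninjected mice and in both human gRHO mice, and none recurs across groups, so cage and treatment cannot be told apart if these are cages. Libraries of 1 group always differed by more than sampling noise (chi-square over degrees of freedom at least 133).

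CPM are counts per 1000000 mature miRNA reads of the alignment table. Counts were fitted by the robust quasi-likelihood test of edgeR 4.0.16 (R 4.3.3), 5 groups in 1 fit, TMM factors, at least 10 counts in at least 3 mice. Before that, 65 of 337 rows reaching 30 reads were set aside because they jumped between distinct levels (a gap of 3.5 in sorted log2(CPM + 0.5), or of 2 with at least 2 libraries on each side). No miR-29 row was among them. Left were 382 rows, with Benjamini-Hochberg adjustment over all of them. Loop rows were fitted apart, with the same factors. The mouse was a term in the comparison of eyes, where it comes from the titles. Correlations used 100000 permutations. The fit was tested on simulated data for mouse gRho against uninjected, with log2 changes of 2 in 193 of 369 rows. It recovered 99.5% of them with 5 false calls. That size is larger than any member difference here, so the test does not tell how well smaller changes, or changes from WT, are found. Alternatives were DESeq2 1.42.0, other scalings, filters, replicate units and left-out mice or libraries. The rule for named rows takes all rows of the 4 loci, the 5 nearest rows of each member and list members past the threshold. mir-30b is named because it lay nearest to a call, and was chosen after its values were seen. Members and lists were chosen with earlier results of these data known. Sequences are from RefSeq and gene features from GENCODE.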

Additional observations from a re-analysis of the deposited data

How the results depend on the processing

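Under settings other than leaving out a mouse, 376 values were recomputed for the members and the loop row. Of these, 322 kept direction and call, 54 changed sign and 0 became a call, and the reversed values reached at most 0.42 in size. For the 4 members the calls stayed at 0 in each of these settings. In the eye comparison the fit with no replicate block gave 0 calls, as did the fit with it. Dropping the TMM factors moved the median of all rows by 0.43 in uninjected P23H against WT, 0.25 in mouse gRho against WT and 0.23 in human gRHO against WT, and by −0.19, −0.19 and −0.29 in mouse gRho, human gRHO and saline against uninjected. The cause of the reversals was not tested. With no factors the log2 fold changes that turned were 0.0056 for mir-29a and 0.25 for mir-29c in human gRHO against WT, 0.079 for mir-29a in mouse gRho against WT, and 0.096 for mir-29a and 0.12 for mir-29c in uninjected P23H against WT. Against uninjected they were −0.090 for mir-29a, −0.013 for mir-29b-1 and −0.13 for mir-29b-2 in human gRHO, −0.017 for mir-29a and −0.16 for mir-29b-2 in mouse gRho, and −0.081 for mir-29b-1 and −0.17 for mir-29b-2 in saline. With total aligned reads as library size, mir-29b-2 gave −0.024, −0.086 and −0.0069 in human gRHO, mouse gRho and saline against uninjected, mir-29b-1 gave 0.016 in human gRHO against mouse gRho and mir-29c gave 0.17 in human gRHO against WT. With the cross-mapped covariate, mir-29a gave 0.30, 0.42 and 0.31 and mir-29b-2 −0.011, −0.074 and −0.15 in human gRHO, mouse gRho and uninjected P23H against WT. There mir-29c gave 0.18 in human gRHO against WT, and mir-29a gave −0.0078 and −0.010 in human gRHO and saline against uninjected. For mir-29b-2 in mouse gRho against uninjected the value was −0.0049 with DESeq2, −0.0046 with RLE factors, −0.031 with no filter, −0.0045 with only the groups compared and −0.0033 with level-jumping rows kept. For mir-29b-2 in human gRHO against uninjected it was −0.013 with each library as a replicate, −0.031 with no filter, −0.059 with only the groups compared (mir-29a −0.0058), −0.043 with level-jumping rows kept and −0.084 without the pair of libraries with few retinal miRNA reads (mir-29a −0.051). In human gRHO against mouse gRho, mir-29b-2 gave −0.023 with each library as a replicate (mir-29b-1 0.0023), −0.0065 with the b rows summed, −0.039 with level-jumping rows kept, −0.084 without that pair of libraries and −0.019 without libraries over 3% rRNA. mir-29c in human gRHO against WT gave 0.10 with no filter and 0.096 with level-jumping rows kept. Without the rRNA-rich libraries, which include 2 of the 3 uninjected mice and so leave 1, mir-29b-1 and mir-29b-2 gave −0.17 and −0.21 in human gRHO, −0.054 and −0.19 in mouse gRho, and −0.13 and −0.14 in saline against uninjected, and mir-29c gave 0.079 in mouse gRho and 0.043 in saline. The list of fibrosis and matrix loci went to 1 call in mouse gRho against WT with DESeq2, RLE factors, the sum of mature rows as library size, each library as a replicate and the b rows summed, where 3.39% to 5.46% of all rows were called.

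Leaving out 1 mouse at a time, the members called in each comparison with WT ranged from 0 to 1, the 1 being mir-29b-2 without WT mouse 1, where 12.0% to 16.8% of all rows were called. mir-29b-2 ranged from −0.20 to 1.15, −0.14 to 1.16 and −0.14 to 1.18 in human gRHO, mouse gRho and uninjected P23H against WT, and mir-29a from −0.68 to 0.25, −0.57 to 0.41 and −0.70 to 0.26, the upper ends without WT mouse 2. mir-29c ranged from −0.13 to 0.13 in human gRHO against WT. Against uninjected, human gRHO ranged from −0.027 to 0.17 for mir-29a, −0.022 to 0.23 for mir-29b-1 and −0.085 to 0.16 for mir-29b-2. Mouse gRho ranged from −0.066 to 0.083 for mir-29b-2 and −0.19 to 0.19 for mir-29c, and saline from −0.22 to 0.17 for mir-29c. In human gRHO against mouse gRho the ranges were −0.20 to 0.032 for mir-29a, −0.10 to 0.052 for mir-29b-1 and −0.069 to 0.14 for mir-29b-2. The list calls ranged from 0 to 3 in human gRHO, 0 to 7 in mouse gRho and 0 to 6 in uninjected P23H against WT, and the mir-29b-1 loop row from −3.30 to −3.10 against mouse gRho and −2.66 to −2.31 against uninjected in human gRHO. Mature rows held 87 to 794 reads per library and the mir-29b-1 loop row 0 to 21, so the loop row is the one that depth limits most.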
